A study of Arabidopsis thaliana with 12 samples.

Results

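The brightest named probes of Arabidopsis thaliana roots were followed here, in the aap3 mutant and in wild type (WT). They are the probes whose annotation gives a single gene and whose deposited intensity averaged 2 or more over the 6 WT samples, with 13 named genes set aside by the rule. Of 3439 probes on the array, 692 carried a single gene, 45 of these reached a WT mean of 2, and 11 of the 45 were among the genes set aside, which left 34 members. The mutant is named after AAP3, an amino acid transporter, and both groups are of ecotype Wassilevskija. Each group has 6 samples of total RNA, with replicate numbers 1 to 6. The sources used here give no allele, plant age, growth condition or array type. Nothing states that replicates came from separate plants, so p-values measure the spread among these samples, and that spread may be technical alone.

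AAP3 belongs to the amino acid permeases, plasma membrane proteins that import amino acids together with protons, and it is known from the root vascular tissue. Roots take up nitrogen, build amino acids from it and exchange them with the shoot through the vascular system. Pentatricopeptide and CRM domain proteins, several of which are among the members, are encoded in the nucleus and act on the transcripts of plastids and mitochondria.

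Intensities were deposited on a linear scale of unstated unit. The highest value rounded to 100 in every one of the 12 samples, and how this shared maximum arose is unstated. Sample medians averaged 0.490 ± 0.011 in aap3 and 0.514 ± 0.018 in WT (SD, n = 6 each). An intensity depends on the probe as well as on the transcript, so the order of the members is an order of probe signals and not of transcript numbers. In bulk RNA, fewer cells of a type and less RNA per cell cannot be told apart. The tissue could not be checked by root markers, since 0 of 17 were paired with a single-gene probe. Of 20 markers of green tissue 3 were measured, all genes set aside by the rule, and 0 of the 3 were at 0 in any sample. Their summed intensity lay between 40.2 and 50.01 in aap3 samples and between 24.3 and 48.8 in WT samples, and its part in the results below was not tested.

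WT intensities chose the members, so their WT levels are a description. The WT means of the 34 members ran from 2.02 to 50.1, with 5 members at 10 or more, 3 between 4 and 10 and 26 between 2 and 4. The median over members was 2.35 in aap3 and 2.39 in WT, against 0.490 in aap3 and 0.513 in WT over all probes. Together the members held 5.99% ± 0.24 of the summed intensity of all probes in aap3 samples and 6.48% ± 0.16 in WT samples (SD, n = 6 each). The aap3 samples were not used to choose the members, and there 23 of the 34 averaged 2 or more and 11 fell short of it. The 5 highest members were the same in both genotypes, and 8 of the 10 highest were shared. Over the 34 members the rank correlation of the aap3 and WT means was 0.86, a description of points that share an array and a selection on WT.

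**Figure D1:**
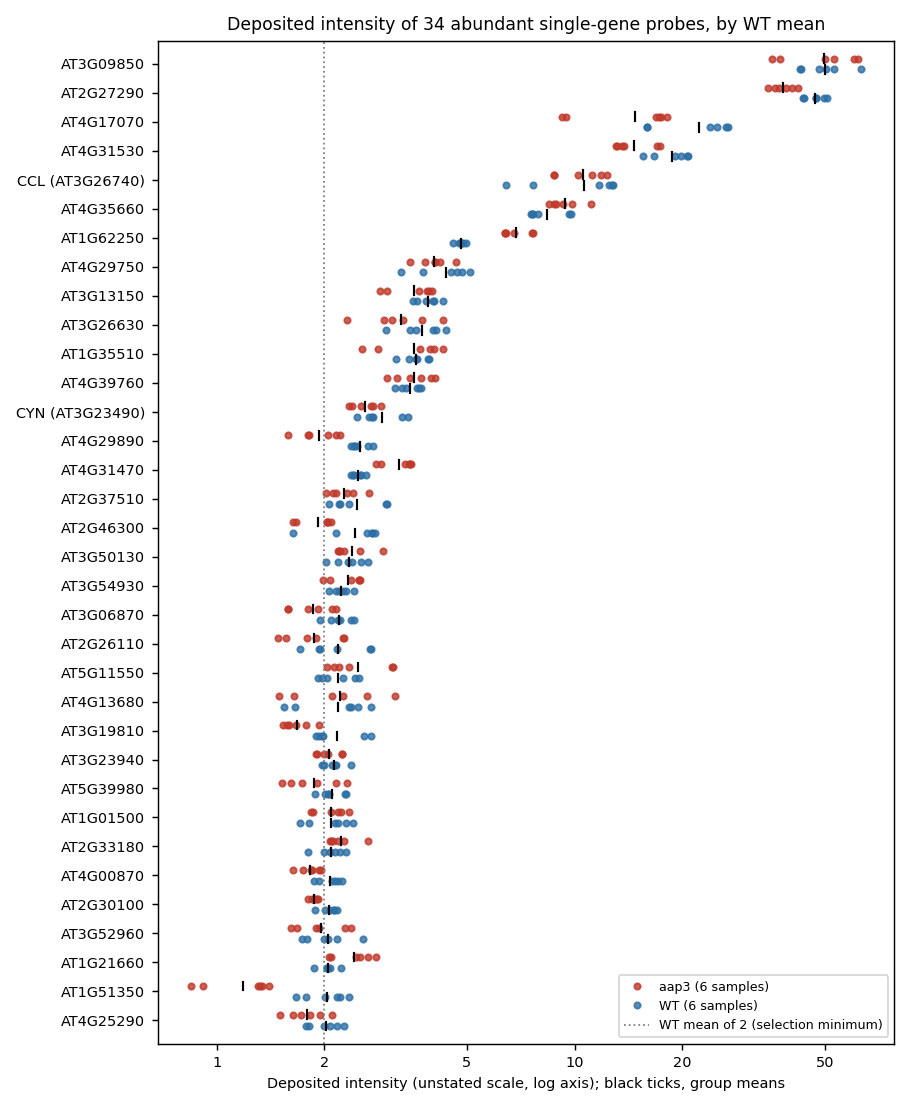
Deposited intensity (horizontal log axis, unstated scale) of the 34 members in each of 6 aap3 samples (red, upper row of each gene) and 6 WT samples (blue, lower row), ordered by WT mean, with black ticks at group means. The 5 members above 10 in WT stand apart from the 26 that lie between 2 and 4, and 5 members show aap3 and WT samples that do not overlap. Over all 3439 probes the groups did not overlap in 1.51% with aap3 higher and in 3.87% with aap3 lower.

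Members were grouped by what their genes are known to encode, a grouping made by hand after the values had been seen. The brightest member was of RNA handling: AT3G09850, which encodes a protein with a G-patch, a glycine-rich motif found in RNA-processing proteins. Its intensity ranged from 35.6 to 62.0 with a median of 51.5 in aap3 samples, and from 42.6 to 63.1 with a median of 49.3 in WT samples. The groups overlapped over most of their range, and the log2 difference between aap3 and WT was -0.03 ± 0.14 (SE, limma adjusted p = 0.957). With median scaling this difference was 0.04, so it has no stable direction.

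Another 6 members share this theme. AT4G29750 has a CRM domain, an RNA-binding domain of plant organelle intron splicing, and it averaged 4.05 ± 0.40 in aap3 and 4.37 ± 0.70 in WT (SD, n = 6 each). AT3G13150, AT3G26630, AT5G39980 and AT2G30100 are of the repeat family of pentatricopeptide proteins, which bind organelle transcripts. AT3G13150 averaged 3.55 ± 0.50 in aap3 and 3.90 ± 0.28 in WT. AT3G26630 averaged 3.28 ± 0.69 in aap3 and 3.76 ± 0.51 in WT. The last of the 7, AT2G37510, has an RNA recognition motif and averaged 2.28 ± 0.23 in aap3 and 2.46 ± 0.41 in WT. None of the 7 passed the limma test at an adjusted p of 0.05, without or with the replicate number as a block. An unadjusted p under 0.05 was reached by 0 of them without the block and by 1 with it, against 17.7% and 36% of all fitted probes. Over all fitted probes 4.36% passed the adjusted threshold without the block and 20.4% with it, so a count of 0 in 7 says little about these genes. Their log2 differences ran from -0.17 to -0.03 with a median of -0.12, against -0.00 over all 3257 fitted probes. Over the other 218 fitted probes at a WT mean of 2 or more the median was -0.05, and 0.01 with median scaling. WT values chose these 7 genes, so the WT side of each difference was used by the rule, and their direction is a description only. With median scaling 6 of the 7 lay below 0 and their median was -0.07.

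Enzymes and enzyme-like proteins made up 9 members. AT4G17070, of the peptidyl-prolyl isomerases that help proteins fold, and AT4G31530, with a nucleotide-binding Rossmann fold, were the brightest. AT1G35510 belongs to the O-fucosyltransferases and averaged 3.56 ± 0.71 in aap3 and 3.61 ± 0.28 in WT. CYN (AT3G23490) is cyanase, which breaks down cyanate to ammonia and carbon dioxide. It averaged 2.60 ± 0.21 in aap3 and 2.89 ± 0.39 in WT. AT3G23940 is dihydroxyacid dehydratase, an enzyme of branched-chain amino acid synthesis, and it averaged 2.05 ± 0.15 in aap3 and 2.12 ± 0.15 in WT. Its log2 difference was -0.01 ± 0.08 (limma adjusted p = 0.982). AT3G52960 is the plastid peroxiredoxin IIE, AT4G29890 resembles choline monooxygenase, AT4G25290 is of the DNA photolyase family and AT1G01500 of the erythronate-4-phosphate dehydrogenases. Of these 9, 3 fell in aap3 and 6 did not pass the test, with a median log2 difference of -0.12. Over all fitted probes 4.36% were called in either direction and 2.09% lower in aap3. Of the other 218 fitted probes at a WT mean of 2 or more, 17.4% were called. With the replicate number as a block the shares were 33.3% of the enzymes and 49.1% of these other bright probes. WT values chose the members, so the WT side of each difference was used by the rule. With median scaling 0 of the 9 were called, and 3 had an unadjusted p under 0.05. With neighbouring replicates averaged, as described below, limma likewise called 0 of the 9, and 3 had an unadjusted p under 0.05.

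Regulators were 4 members, and 0 of them passed the test without or with the replicate block, while 0 had an unadjusted p under 0.05 without the block and 1 with it. Over all fitted probes 4.36% passed without the block and 20.4% with it, and 17.7% and 36% had an unadjusted p under 0.05, so a count of 0 in 4 says little about these genes. CCL (AT3G26740) is a clock-regulated gene known for its short-lived transcript. Its intensity ranged from 8.75 to 12.3 with a median of 10.7 in aap3 samples, and from 6.45 to 12.8 with a median of 12.1 in WT samples. The 2 lowest values of each group were those of replicates 5 and 6. The log2 difference was -0.03 ± 0.16 (limma adjusted p = 0.957), and it was 0.09 with median scaling. The F-box and kelch-repeat gene AT4G39760 averaged 3.57 ± 0.43 in aap3 and 3.47 ± 0.23 in WT. AT3G54930 encodes a regulatory B subunit of protein phosphatase 2A, and AT4G00870 a basic helix-loop-helix transcription factor. These 2 averaged 2.32 ± 0.24 and 1.83 ± 0.12 in aap3, against 2.23 ± 0.12 and 2.08 ± 0.14 in WT.

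The remaining 14 members were 8 proteins with repeats, a co-chaperone domain or a domain of unknown function, 2 secreted or cell surface proteins and 4 left unassigned. AT2G27290, of unknown function, was the second brightest member. AT4G35660, also of unknown function, averaged 9.39 ± 0.96 in aap3 and 8.36 ± 1.07 in WT. It was higher in aap3 in 6 of 6 same-numbered pairs of deposited values, but the groups overlapped and the log2 difference was 0.08 ± 0.14 (limma adjusted p = 0.868). The secreted or surface proteins were AT4G31470, related to the pathogenesis-related protein PR-1, and AT2G46300, of the late embryogenesis abundant hydroxyproline-rich glycoproteins.

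The comparison asked which of these transcripts differ in roots of the aap3 mutant. In the fit without the replicate block, which counts the 6 samples of a group as separate, 2 members rose in aap3 roots and 4 fell. The other 28 did not pass the test. As given below, 12 members were called with the block and 0 with neighbouring replicates averaged. AT1G62250 and AT4G31470 rose by 0.48 and 0.43 on the log2 scale. AT4G17070, AT1G51350, AT4G31530 and AT4G29890 fell by 0.77, 0.71, 0.46 and 0.32. These 6 are 17.6% of the members, and over all 3257 fitted probes 4.36% were called in either direction, 2.27% higher and 2.09% lower. Of the other 218 fitted probes at a WT mean of 2 or more, 17.4% were called. With the replicate block the shares were 35.3% of the members and 49.1% of these other bright probes. How the members stand against them thus depends on the fit. Because WT values chose the members, the WT side of each difference was used by the rule. Median scaling called 3 members (8.82%), against 19.3% of other bright probes and 4.3% of all probes. Deposited values called 5 members (14.7%), against 22.9% of other bright probes and 6.32% of all probes, 1.66% higher and 4.66% lower, so the even split of all calls depends on the scaling. With members chosen by the aap3 mean instead, 24 qualified, of which 23 were shared, and 3 were called higher and 2 lower.

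**Figure D2:**
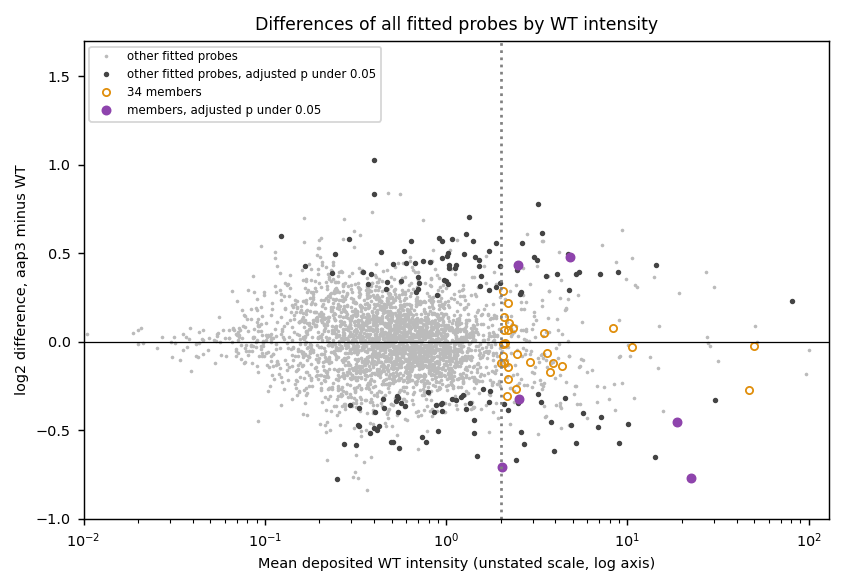
Log2 difference between aap3 and WT (vertical axis, quantile-normalized) against the mean deposited WT intensity (horizontal log axis, unstated scale) for the fitted probes, with the 34 members circled in orange and the 6 called members in purple. Called probes, 4.36% of all fitted, lie on both sides of 0, and members right of the dotted line at 2 scatter on both sides too.

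Averaging neighbouring replicates ended every one of these calls. Replicates 1 and 2, 3 and 4, and 5 and 6 resembled each other more than other replicates did. The aap3 minus WT differences correlated across probes at 0.54 to 0.65 within these couples and at 0.32 to 0.35 between other replicate pairs. With each couple averaged to 1 value per group, limma called 0 of the 34 members and 0.00% of all probes (6 members and 8.17% of probes at an unadjusted p under 0.05). With the replicate block added to these averages it called 0 members and 0.0921% of all probes (11 members and 23.7% of probes at an unadjusted p under 0.05). In that fit the limma adjusted p of the 6 members above ran from 0.0511 in AT4G17070 and AT1G51350 to 0.135 in AT4G29890. With couples averaged and no block it ran from 0.442 in AT1G62250 to 0.556 in AT4G29890. If the couples are repeat measurements, the adjusted p-values over 6 samples per group that follow are too small. The fit without the block also leaves out the pairing of same-numbered samples. With the block over 6 samples per group, the limma adjusted p of these 6 members was lower. It ran from 0.000967 in AT4G17070 and AT1G51350 to 0.0208 in AT4G29890. That fit, too, counts the 2 samples of a couple as separate.

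AT1G62250, for which no role is given here, had the smallest adjusted p of the members. Its intensity ranged from 6.38 to 7.64 with a median of 6.60 in aap3 samples, and from 4.58 to 4.99 with a median of 4.81 in WT samples. Every aap3 sample lay above every WT sample. The log2 difference was 0.48 ± 0.06 (SE, limma adjusted p = 0.00156). It was 0.38, 0.52 and 0.55 within the couples 1 and 2, 3 and 4, and 5 and 6. The limma adjusted p was 0.442 with couples averaged, and 0.0542 with the block as well.

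AT4G31470 was the other member that rose. Its intensity ranged from 2.79 to 3.49 with a median of 3.41 in aap3 samples, and from 2.37 to 2.61 with a median of 2.47 in WT samples. The groups did not overlap, and the 2 lowest aap3 values were those of replicates 1 and 2. It rose by 0.43 ± 0.08 on the log2 scale (limma adjusted p = 0.00925), with 0.31, 0.43 and 0.56 within the 3 couples in order of number. Without replicates 5 and 6 of both groups its call ended (0.38, limma adjusted p = 0.0811) and it held with the replicate block (adjusted p = 0.0244). Probe 3185, which stands 6 numbers away and has no gene, averaged 9.14 in aap3 and 7.07 in WT, and its part in the result was not tested. Whether probe numbers follow places on the array was not tested either.

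AT4G17070 had the largest difference of the members on the log2 scale of the quantile-normalized values. Its intensity ranged from 9.22 to 18.1 with a median of 17.1 in aap3 samples, and from 15.9 to 26.8 with a median of 24.4 in WT samples. The groups overlapped, and replicates 5 and 6 were low in both genotypes, averaging 9.34 in aap3 and 15.9 in WT. Within each couple aap3 was lower, by log2 differences of -0.79, -0.61 and -0.91. The pooled difference was -0.77 ± 0.16 (limma adjusted p = 0.0204). Median scaling ended the call (-0.56, limma adjusted p = 0.163), as did deposited values (-0.62, adjusted p = 0.118). Without WT replicate 3 its limma adjusted p was 0.0503, and without WT replicate 4 it was 0.0527.

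AT4G31530 ranged from 13.1 to 17.3 with a median of 13.6 in aap3 samples, and from 15.5 to 20.7 with a median of 19.4 in WT samples. The groups overlapped, since aap3 replicates 3 and 4 lay above WT replicates 5 and 6. The log2 difference was -0.46 ± 0.09 (limma adjusted p = 0.0126), with -0.71, -0.26 and -0.39 within the couples. The call was lost with median scaling (-0.29, limma adjusted p = 0.0959), with deposited values (-0.36, adjusted p = 0.0618) and with replicates 1 to 4 only (-0.49, adjusted p = 0.077). On those replicates it also missed the threshold with the replicate block (adjusted p = 0.0508).

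AT1G51350, an armadillo-repeat gene, entered just above the minimum, at a WT mean of 2.03. Its intensity ranged from 0.850 to 1.40 with a median of 1.31 in aap3 samples, and from 1.67 to 2.34 with a median of 2.09 in WT samples. Every aap3 sample lay below every WT sample, and replicates 5 and 6 were the lowest of both groups. On the log2 scale the difference was -0.71 ± 0.14 (limma adjusted p = 0.0132), with -0.66, -0.60 and -0.86 within the couples. It kept its call whichever of the 12 samples was left out, though the other sample of the couple then stayed in. The limma adjusted p was 0.464 with couples averaged, and 0.0511 with the block as well.

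AT4G29890 ranged from 1.59 to 2.21 with a median of 1.93 in aap3 samples, and from 2.37 to 2.74 with a median of 2.44 in WT samples. The groups did not overlap. Its difference on the log2 scale was -0.32 ± 0.08 (limma adjusted p = 0.0489), just under the threshold, with -0.33, -0.10 and -0.54 within the couples. Median scaling ended the call (-0.31, limma adjusted p = 0.0637), as did replicates 1 to 4 only (-0.21, limma adjusted p = 0.246). When samples were omitted in turn it was lost in 10 of 12 cases, all but those of aap3 replicates 3 and 4. Probe 2065, which stands 3 numbers away and has no gene, averaged 6.24 in aap3 and 7.94 in WT, and its part in the result was not tested.

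**Figure D3:**
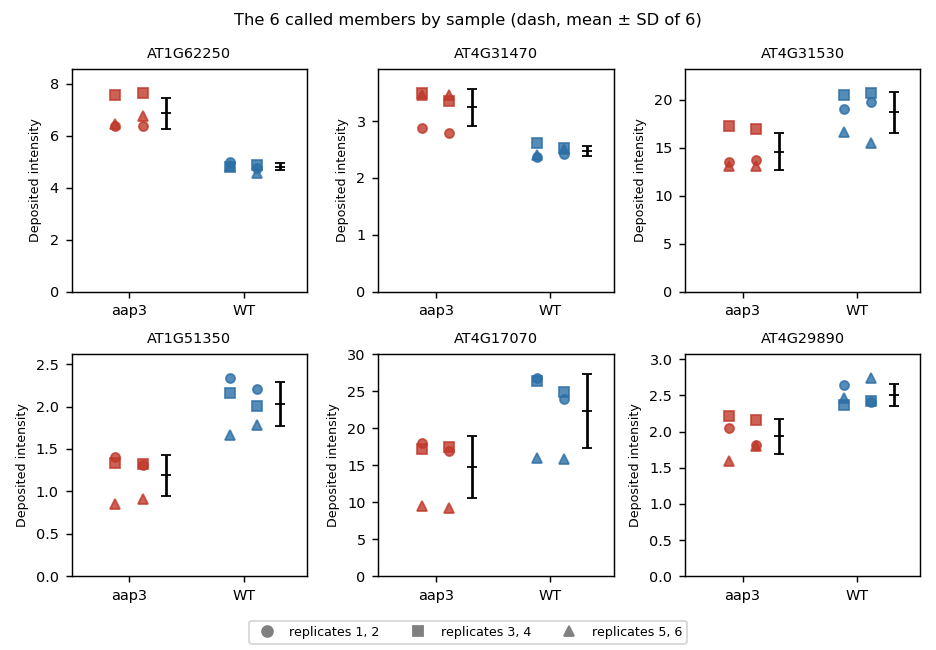
Deposited intensity (vertical axes from 0, unstated scale) of the 6 called members in 6 aap3 samples (red) and 6 WT samples (blue), with circles for replicates 1 and 2, squares for 3 and 4, triangles for 5 and 6, and dashes for the mean ± SD. Samples of a couple lie close together in both genotypes, as in AT4G17070, where replicates 5 and 6 average 9.34 in aap3 and 15.9 in WT.

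With the replicate number as a block, 12 members (35.3%) were called, 4 higher and 8 lower. This compares with 49.1% of the other 218 fitted probes at a WT mean of 2 or more, 45 of them higher and 62 lower. Over all fitted probes it compares with 20.4%, 10.3% higher and 10.2% lower. WT values chose the members, so the WT side of each difference was used by the rule. The split into 4 higher and 8 lower is thus a description only. The 6 members above were among the 12. The other 6 that the block added were AT5G11550 and AT1G21660, higher in aap3, and AT2G27290, AT2G46300, AT3G06870 and AT3G19810, lower in aap3.

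AT2G27290 had the second highest WT mean. It ranged from 34.7 to 42.1 with a median of 38.1 in aap3 samples, and from 43.4 to 50.7 with a median of 47.3 in WT samples. In these deposited values every aap3 sample lay below every WT sample. On the normalized log2 scale the difference was -0.27 ± 0.10 without the block (limma adjusted p = 0.188) and -0.27 ± 0.07 with it (adjusted p = 0.0333). Deposited values without scaling gave a call without the block (-0.30, adjusted p = 0.0287), so whether this gene is called depends on the normalization and on the block. Over all 3439 probes, the deposited intensities of the groups did not overlap in 3.87% with aap3 lower and in 1.51% with aap3 higher. Among the members this held for 3 with aap3 lower, AT2G27290, AT4G29890 and AT1G51350, and for 2 with aap3 higher, AT1G62250 and AT4G31470.

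AT1G21660, which has the J domain of co-chaperones, ranged from 2.06 to 2.79 with a median of 2.48 in aap3 samples, and from 1.87 to 2.22 with a median of 2.04 in WT samples. Its log2 difference was 0.29 ± 0.09 (limma adjusted p = 0.101, and 0.0249 with the block). Within the couples it was 0.06, 0.40 and 0.40, so replicates 1 and 2 barely differed. AT5G11550, also of the armadillo-repeat proteins, averaged 2.48 ± 0.49 in aap3 and 2.19 ± 0.25 in WT (SD, n = 6 each). It was higher in aap3 in 6 of 6 pairs, by 0.22 on the log2 scale (limma adjusted p = 0.389, and 0.0378 with the block).

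AT3G19810, of unknown function, averaged 1.68 ± 0.15 in aap3 and 2.18 ± 0.36 in WT (SD, n = 6 each). Its log2 difference was -0.31 (limma adjusted p = 0.174, and 0.00857 with the block), and it was lower in 6 of 6 pairs. AT2G46300 averaged 1.92 ± 0.21 in aap3 and 2.44 ± 0.45 in WT. Its log2 difference was -0.27 (adjusted p = 0.303, and 0.035 with the block). WT replicate 6, at 1.63, lay just below the lowest aap3 sample, at 1.64, and without it the difference was -0.38 (limma adjusted p = 0.0415). AT3G06870 averaged 1.86 ± 0.25 in aap3 and 2.20 ± 0.18 in WT, lower in 6 of 6 pairs, by a log2 difference of -0.21 (limma adjusted p = 0.286, and 0.0242 with the block).

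**Figure D4:**
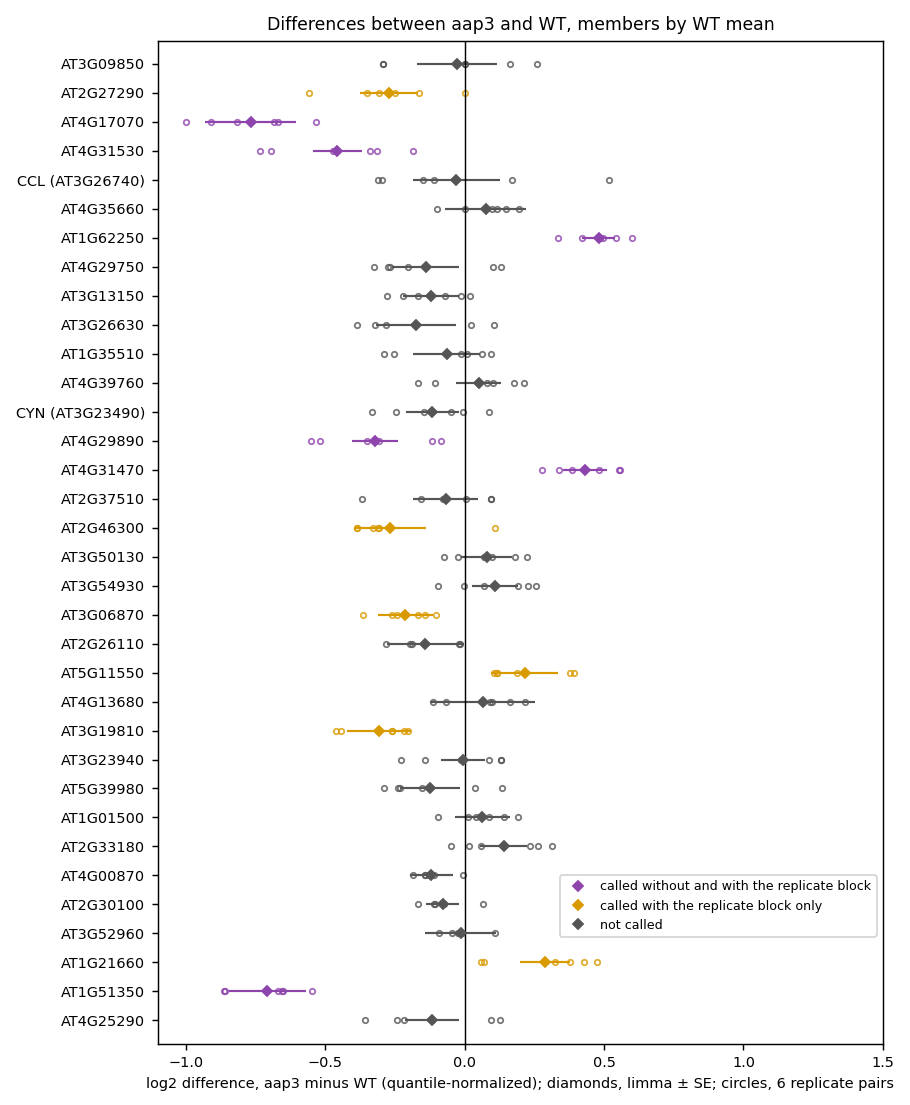
Log2 difference between aap3 and WT (horizontal axis, quantile-normalized values) of the 34 members ordered by WT mean, with diamonds for the limma estimate ± SE and circles for the 6 replicate pairs. The 6 members called without and with the replicate block are purple, the 6 called with the block only are orange, and the other members spread around 0.

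The spread of each member was divided between replicate couple and genotype, where the couple term has 2 degrees of freedom and the genotype term 1. When the sum of squares of each member's log2 values was divided, the couple took a median of 52.2% and the genotype 13.8%, with 10.6% between the 2 samples of a couple. Over all 3257 fitted probes the medians were 39.5% for the couple, 8.34% for the genotype and 24.4% within couples. Over the other 218 bright probes they were 41.1%, 25.9% and 5.42%. The couple took more than the genotype in 25 of 34 members (73.5%), in 56% of the other bright probes and in 76.1% of all fitted probes, so the members' share was near that of all probes. Within a couple, members differed by a median of 0.07 on the log2 scale in aap3 and 0.08 in WT, and between couples by 0.23 in aap3 and 0.17 in WT.

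In AT4G35660 the couple took 91.5% of the sum of squares, in AT4G13680 90.6% and in AT3G52960 89.4%. AT4G13680, of unknown function, averaged 2.88, 2.18 and 1.57 in the 3 aap3 couples, and 2.59, 2.36 and 1.60 in the 3 WT couples, in order of number. Both genotypes thus had their lowest values in replicates 5 and 6. The peroxiredoxin AT3G52960 averaged 1.92, 1.65 and 2.32 in the aap3 couples and 2.02, 1.76 and 2.37 in the WT couples, with replicates 5 and 6 highest in both. AT1G62250 stood at the other end, with 94.1% of its sum of squares between the genotypes and 2.58% between couples.

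**Figure D5:**
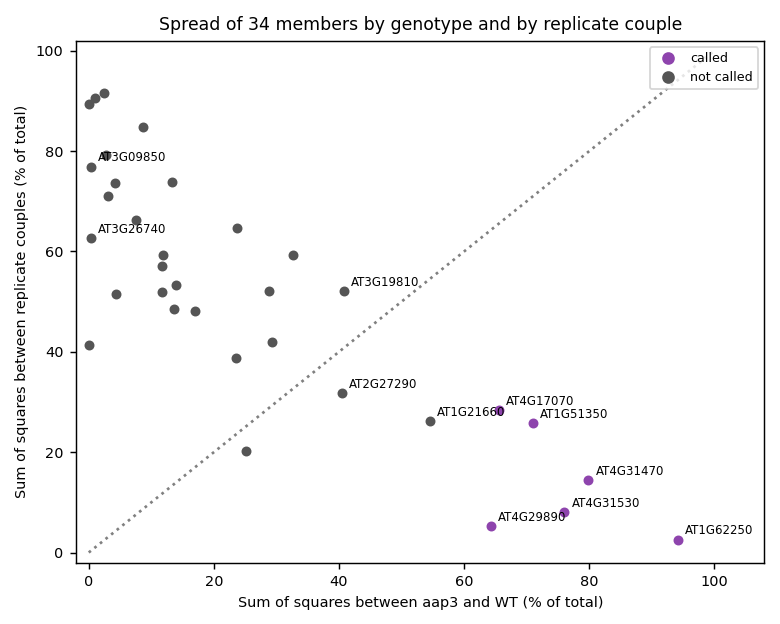
Share of each member's sum of squares that lay between replicate couples (vertical axis, percent) against the share between aap3 and WT (horizontal axis, percent). The 6 called members (purple) lie at 64.3% or more on the horizontal axis, and 25 of 34 members lie above the dotted line of equal shares. The calls and the horizontal axis rest on the same log2 values, so the place of the called members is no separate support for the calls.

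Replicates 5 and 6 stood apart in many members, so the counts were also taken without them. With replicates 1 to 4 only, 1 member was called higher and 3 lower, against 1.89% of all probes in either direction. Over all probes 1.02% were called higher and 0.867% lower. With the replicate block on these samples 2 were called higher and 4 lower, against 7.86% of all probes, 4.02% higher and 3.84% lower. The median log2 difference of the members was -0.07 over all samples and -0.08 without replicates 5 and 6, against -0.00 over all probes in both. With members chosen by the aap3 mean the median was 0.02, so its sign depends on which genotype chose the members. Just inside the minimum stood AT1G21660, AT1G51350 and AT4G25290, with 2.42, 1.19 and 1.79 in aap3 and 2.05, 2.03 and 2.02 in WT. Just outside stood AT5G06790, AT2G40980 and AT3G04210, with 1.57, 1.97 and 1.52 in aap3 and 1.98, 1.97 and 1.90 in WT. The gene that the aap3 mean would have added, the WD40-repeat gene AT3G09080, averaged 2.35 in aap3 and 1.72 in WT.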

How the data were processed

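The authors deposited a linear intensity for each probe in each sample, and what they did to make these values is unstated in the sources used here. Probe genes came from GEO's platform annotation, with locus tags from the RefSeq gene table of the TAIR10.1 assembly. The deposited intensities were divided by each sample's median, floored at the 5th percentile of positive values (0.200 times the median, 9.95% of values at or below it), log2 transformed and quantile normalized. Leaving out 182 probes that lay at the floor throughout, 3257 were fitted without covariates in limma 3.58.1 (R 4.3.3, lmFit, eBayes), with Benjamini-Hochberg adjustment over all of them and a threshold of 0.05. All 34 members were above the floor in every sample.

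The members, lists and settings were chosen with earlier results of these data known. Genes named are the 12 brightest, all called without the block, those called with it only (at most 5 per direction), the 3 on each side of the minimum and the 2 brightest of each function group; others were named to show a role or a pattern after their values were seen. Key words planned for function groups matched 1 member, as the tables hold no product names, so groups were made by hand. Same-numbered samples deviated together from their group means (correlations of 0.73 to 0.75 in 6 pairs), so the numbers pair the samples, as the data and not the labels show. The number of samples limits the precision. Alternatives were other scalings, an offset, probe filters, replicate blocks, couples averaged, a trended variance, omissions and other member choices.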

Additional observations from a re-analysis of the deposited data

Results flagged for a closer look

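Checks for a sample far from the others of its group were made on deposited intensities of each member in each group of 6. Of 68 checks 1 stood out. Chance would flag about 1 check in 20 if the 6 values were independent, so 1 flag in 68 is not unusual. Samples of a couple lie close together, so that rate may not hold here. AT2G33180 was higher in aap3 replicate 1, at 2.65, than in the other aap3 samples, which lay between 2.07 and 2.27. The gap was 0.647 of the range. This gene was not called (limma adjusted p = 0.432, and 0.153 with the replicate block).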

How the results depend on the processing

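The count of 6 called members, 2 higher and 4 lower, was the same with an offset, with all probes kept, with probes above the floor in all samples and with a trended robust variance. Deposited values gave 5, 2 and 3. Median scaling gave 3, of which 2 higher and 1 lower. The replicate block gave 12, of which 4 higher and 8 lower, and so did the replicate number as a random block. Couples averaged gave 0, 0 and 0, without and with the replicate block, and these averages leave 3 values per group. Omitting each sample gave 4 to 6 calls, 2 higher and 2 to 4 lower, with 2 lower without WT replicate 3 and without WT replicate 4, and a median log2 difference of -0.10 to -0.07. Replicates 1 to 4 only, chosen after seeing the data, gave 4, of which 1 higher and 3 lower, and with the replicate block 6, 2 and 4. Members chosen over all 12 samples were 29, with 3 higher and 3 lower. The choice by the aap3 mean gave 5 calls, 3 higher and 2 lower, and a median of 0.022. A WT mean of 4 or more left 8 members, with 3 calls, 1 higher and 2 lower, as fewer genes were counted. No called member changed direction under the alternatives run. Among members not called, AT3G09850 went to 0.039 with median scaling and to between -0.10 and 0.044 in omissions, and CCL (AT3G26740) to 0.091 with median scaling, 0.022 with deposited values and between -0.16 and 0.033 in omissions. AT1G35510 went to 0.026 with median scaling, 0.035 with replicates 1 to 4 without and with the block, and between -0.12 and 0.012 in omissions, and AT4G39760 to -0.028 with replicates 1 to 4 without and with the block. AT3G23940 went to 0.0215 and AT3G52960 to 0.0031 with median scaling. The cause was not tested unless the alternative's construction is named. Signal over background was not used here.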

Other observations

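The members were not spread over the chromosomes as the single-gene probes were, a description of a selected list with no test. Chromosome 3 held 11 of the 34 members (32.4%), against 130 single-gene probes (18.8%), and chromosome 4 held 10 (29.4%), against 120 (17.4%). Chromosome 5 held 2 members (5.88%), against 143 single-gene probes (20.7%). Some dimmer members stand near much brighter probes by probe number. AT4G00870, at 1.83 in aap3 and 2.08 in WT, stands 6 numbers from AT4G17070, at 14.7 in aap3 and 22.3 in WT. AT1G01500, at 2.09 in both genotypes, stands 6 numbers from probe 3100, at 30.8 in aap3 and 31.7 in WT. AT3G26630, at 3.28 in aap3 and 3.76 in WT, stands 3 numbers from probe 2398, at 27.6 in aap3 and 27.9 in WT.

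Most of the brightest probes carry no single gene. Of 252 probes at a WT mean of 2 or more, 45 had a single gene, 53 had several and 154 had none, so the members describe only the named part of the bright signal.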
